A study of Mus musculus with 12 samples.

Results

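Cholesterol and fatty acids are built from acetyl-CoA by enzymes whose genes are switched on by SREBP transcription factors. SREBP precursors are held in the endoplasmic reticulum by SCAP and the INSIG proteins when sterols are plentiful, and are released to the nucleus when sterols run low. Ch25h, an enzyme known in mouse macrophages to be induced by interferon, makes an oxysterol that favours the retained state, so these genes are often followed where cells meet nucleic acids or viruses. The genes described here are 34 SREBP targets and regulators chosen by name, together with Ch25h, out of 54532 genes listed for each library. They comprise 18 enzymes of the sterol pathway, 6 genes of SREBP regulation and sterol transport, 9 genes of the fatty acid arm, and Ch25h. All 34 were found in the files, and 32 passed the filter on low counts. Ch25h and Stard4 did not.

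The libraries were made from polyA RNA of L929 cells, an established mouse fibroblast line, kept in medium with serum. There were 12 libraries under 6 labels of 2 libraries each, collected at 6 h per the labels' protocols. The labelled treatments were transfection with G3-YSD, transfection with HSV, stimulation with cGAMP (a cyclic dinucleotide that cGAS makes on binding DNA), transfection with HT-DNA, transfection with hpRNA, and mock, which was untreated. Abbreviations follow the labels, and no genetic change or further agent is named for any label. The labels call the transfections duplicates and do not say whether the 2 libraries of a label came from separate cultures, so p-values measure only the spread between these libraries, which may be technical. The final digit of each HSV title was read as a replicate number and could instead name a virus type. All 12 carry L929 as the cell line. The source names of mock, HT-DNA and hpRNA are worded differently from those of cGAMP, G3-YSD and HSV, so G3-YSD and HSV were set against cGAMP as well as against mock.

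Total counts ranged from 12650790 to 18912400 per library. Libraries did not group by label. For each of the 12, the closest other library carried another label and the same number, with a squared difference 1.41 to 2.03 times that of counting noise, against 3.52 to 82.6 times between the 2 libraries of a label. The closest partner of G3-YSD 1 was HSV 1 and that of G3-YSD 2 was HSV 2. The G3-YSD and HSV libraries stood far from the other 8, at 43.7 to 68.3 times counting noise, against 1.55 to 13.0 times among those 8. They also had more genes detected, 23909 to 26496 against 21635 to 22550. Whether the treatments or another difference between the libraries lies behind this was not tested. It enters every fold change of G3-YSD and HSV over mock or cGAMP. Of 10 fibroblast markers, Dcn was at 0 in all 12 libraries and Lum at or near 0. The 10 together summed to 2778 and 4195 CPM (counts scaled to a common library size) in G3-YSD and 2605 and 4104 CPM in HSV, against 3070 to 3382 CPM in the other 8 libraries, with Vim and Col1a1 well detected throughout. Hepatocyte markers summed to at most 1.65 CPM in any library. Of the 5 adipocyte markers, Fabp4 reached 226 to 319 CPM while Adipoq, Lep and Plin1 stayed at or below 1.15 CPM. Of the 5 leukocyte markers, Cd68 stood at 57.5 to 91.3 CPM and Ptprc at or below 1.08 CPM. The 5 epithelial and endothelial markers summed to 2.07 and 5.23 CPM in G3-YSD, with 2.02 and 8.01 CPM in HSV, against at most 1.20 CPM in the other 8 libraries.

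In mock cells, per kilobase of exon, the most abundant members were Scd2, a stearoyl-CoA desaturase, at a mean of 219 FPKM, and Cyp51, the lanosterol demethylase, at 134 FPKM. Fasn, the fatty acid synthase, followed at 85.5 FPKM and Insig1, which retains SCAP in the endoplasmic reticulum, at 75.8 FPKM. The lowest of the tested members were Fads2, a fatty acid desaturase, at 0.118 FPKM, Tm7sf2, a sterol reductase, at 0.846 FPKM and Fdps, the farnesyl diphosphate synthase, at 2.07 FPKM. Exons of Fdps overlap Gm43738 over 26.7% of their bases and those of Tm7sf2 overlap Vps51 over 12.1%, so both levels are uncertain.

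RefSeq promoter windows of the assembly GRCm38.p6, from 250 bases before to 50 bases after a start site, were matched for 27 of the 34 members. Both strands were searched for the sterol response element TCACNCCAC, the NF-Y box CCAAT, the GC box GGGCGG and the E-box CACGTG, none of which contains another, and matches that shared bases were each counted. A gene was counted when any of its windows held the motif. For Dhcr7, a sterol enzyme with 3 windows, only the window that begins at chr7:143829964, inside the gene, held an NF-Y box. The NF-Y box, bound by a factor known to act beside SREBP, was present for 14 of 15 sterol enzymes, 4 of 5 regulators and 2 of 6 genes of the fatty acid arm, against 42.6% of all tested genes with a window and 37.4% of all windows. The GC box was present for 14 of 15 sterol enzymes, 5 of 5 regulators and 2 of 6 genes of the fatty acid arm, against 63.9% of tested genes. The E-box was present for 3 of 15 sterol enzymes, 2 of 5 regulators and none of the 6 genes of the fatty acid arm, against 11.3% of tested genes. The sterol response element, in these letters, occurred for Hmgcs1 alone, against 1.35% of tested genes. A match is a description of these letters and not evidence of binding. Below are 160 bases upstream of the start for the single match to the element and for 2 genes whose RNA was lower in every G3-YSD and HSV library, a sterol enzyme and a regulator. Capitals mark the sterol response element and the NF-Y boxes on either strand. The Hmgcs1 stretch lies on the plus strand at chr13:119690191-119690350, the Sc5d stretch on the minus strand at chr9:42264301-42264460 and the Insig2 stretch on the minus strand at chr1:121332590-121332749.
Hmgcs1: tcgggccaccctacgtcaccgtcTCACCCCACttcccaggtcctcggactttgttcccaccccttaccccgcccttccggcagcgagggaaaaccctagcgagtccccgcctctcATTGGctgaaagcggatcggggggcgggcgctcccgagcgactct
Sc5d: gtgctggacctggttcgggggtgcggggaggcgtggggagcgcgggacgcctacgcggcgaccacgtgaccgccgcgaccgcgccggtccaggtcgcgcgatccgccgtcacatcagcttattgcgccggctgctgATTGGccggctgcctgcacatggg
Insig2: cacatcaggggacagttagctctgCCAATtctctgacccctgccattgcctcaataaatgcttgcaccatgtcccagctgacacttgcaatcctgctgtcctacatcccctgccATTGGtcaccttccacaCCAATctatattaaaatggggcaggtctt
In these stretches Hmgcs1 held 1 NF-Y box beside its element, Sc5d held 1 and Insig2 held 3. The windows of Elovl6 and Fads2, the called genes of the fatty acid arm, held neither the element nor an NF-Y box.

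None of the 32 tested members was called under HT-DNA, hpRNA or cGAMP against mock, where a call is a Benjamini-Hochberg adjusted p under 0.05 in edgeR's quasi-likelihood test across all 16840 tested genes. The background was 0% called among all genes in each comparison. In HT-DNA against mock 62 genes had an unadjusted p under 0.05 and DESeq2 called 1, in hpRNA against mock 58 did and DESeq2 called 1, and in cGAMP against mock 99 did and DESeq2 called 0. No member was below that unadjusted level in any of the 3. The median log2 fold change of the 18 sterol enzymes was 0.05 under HT-DNA, 0.04 under hpRNA and 0.05 under cGAMP. Member log2 fold changes under cGAMP ran between -0.66 ± 0.61 (SE) for Lpin1, a phosphatidate phosphatase and SREBP coregulator, and 1.01 ± 0.70 (SE) for Fads2, neither of them called. Residual spread in this fit, shared by all 6 labels, includes the wide pairs of G3-YSD and HSV. It also includes the split between libraries 1 and 2, at 9.34 times counting noise in mock and 8.89 times in hpRNA. Mock 1 and hpRNA 1 differed by only 1.83 times, and mock 2 and hpRNA 2 by 1.69 times. Fits with a replicate block in only the libraries compared, given with the processing, did call genes in each of these 3 comparisons. Acat2 was then called higher in hpRNA against mock.

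Under G3-YSD, 5 sterol enzymes, Insig2 and Elovl6 fell against mock and Fads2 rose. The same 8 members were called in the same directions under HSV against the shared mock libraries. HSV 1 differed from G3-YSD 1 by 2.03 times counting noise and HSV 2 from G3-YSD 2 by 1.41 times. The HSV calls are therefore not independent of those under G3-YSD. In G3-YSD against mock, 7 of 32 members were called lower and 1 higher, where 3.37% of all tested genes were called lower and 1.79% higher. In HSV against mock the counts were again 7 lower and 1 higher, where 3.47% of all genes were called lower and 1.73% higher. The median log2 fold change of the 18 sterol enzymes was -0.55 under G3-YSD and -0.53 under HSV, and 16 of the 18 lay below 0 under each, while the median over all genes tested was 0.11 and 0.10. The 9 genes of the fatty acid arm had medians of -0.45 and -0.40, and the 5 tested regulators medians of -0.52 and -0.52. These calls rest on the spread pooled over 6 labels. With only the 4 libraries compared, or without either mock library, 0 members were called, and without G3-YSD 2 or HSV 2 in its own comparison also 0. In bulk RNA, fewer cells of a type and less RNA per cell cannot be told apart.

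**Figure D1:**
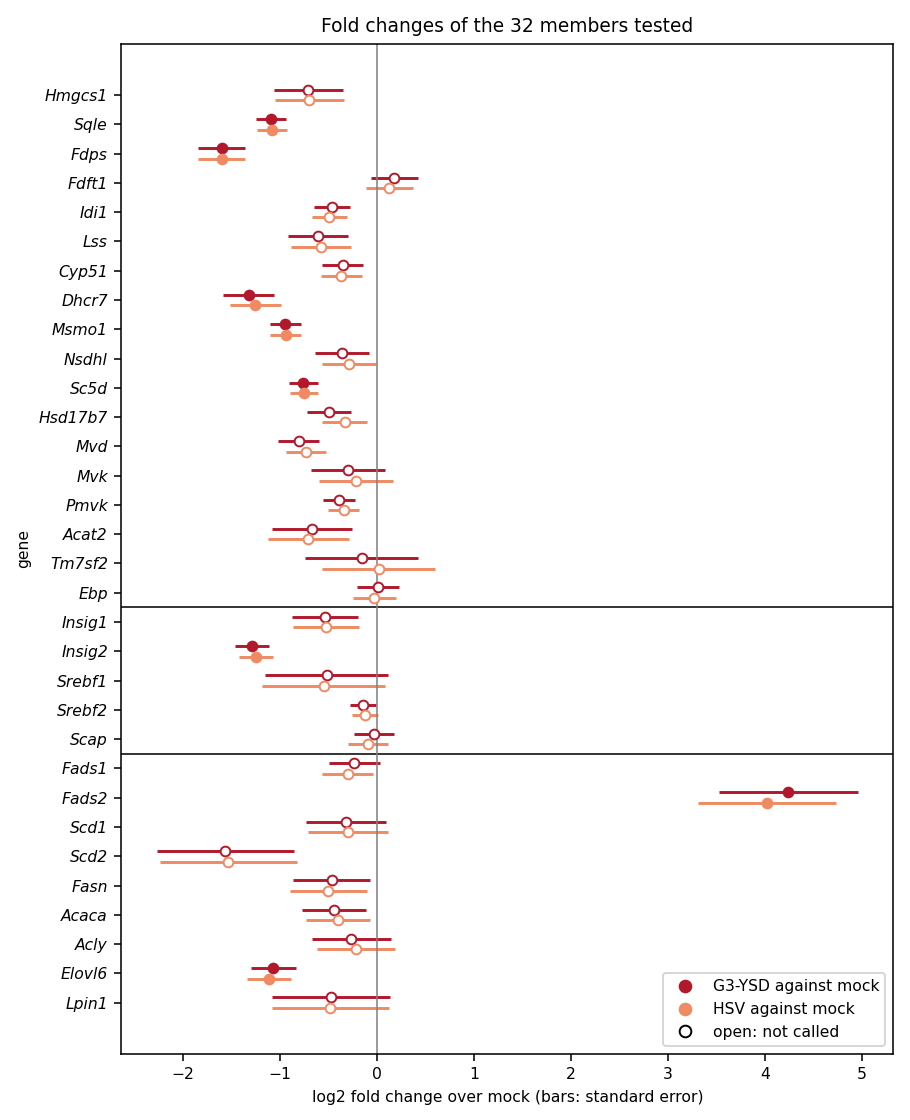
Log2 fold change over mock of the 32 tested members on the x axis, by gene, for G3-YSD (dark red) and HSV (orange), with bars for the standard error and open points for members not called. Filled points mark 7 members below 0 and Fads2 above 0, and sterol enzymes at the top lie mostly to the left of 0.

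Among the upstream enzymes, Fdps, which makes farnesyl diphosphate (chr3:89093588-89101959, minus strand of mm10, as are all gene positions here), gave 3.25 and 2.46 CPM in G3-YSD, 3.31 and 2.39 CPM in HSV, 8.01 and 8.63 CPM under cGAMP, 8.85 and 7.06 CPM under HT-DNA, 9.19 and 8.62 CPM under hpRNA, and 8.75 and 8.66 CPM in mock (here and below, library 1 then library 2). All 4 G3-YSD and HSV libraries lay below all 8 others. The log2 fold change was -1.60 ± 0.24 (SE, edgeR adjusted p = 0.0162) under G3-YSD and -1.60 ± 0.24 (SE, edgeR adjusted p = 0.0168) under HSV. Of the 75-base stretches of the Fdps exons, 23.5% also occur in other genes, Gm43738 among them, so its counts are uncertain.

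Sqle (chr15:59315077-59331192, plus strand), the squalene epoxidase and a rate-limiting step, gave 87.0 and 80.3 CPM in G3-YSD and 87.9 and 81.3 CPM in HSV. It gave 193 and 166 CPM under cGAMP, 196 and 168 CPM under HT-DNA, 162 and 181 CPM under hpRNA, and 164 and 194 CPM in mock. The 4 low libraries differed little among themselves and did not overlap the others, and Sqle fell by 1.10 ± 0.15 (SE, edgeR adjusted p = 0.0140) on the log2 scale under G3-YSD. Under HSV it fell by 1.08 ± 0.15 (SE, edgeR adjusted p = 0.0155).

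Msmo1 (chr8:64718139-64733792, minus strand), which oxidises methyl groups of sterol intermediates, was the most even of the 5 called enzymes across the 4 libraries. It gave 60.3 and 60.1 CPM in G3-YSD, 58.9 and 62.1 CPM in HSV, 125 and 103 CPM under cGAMP, 122 and 112 CPM under HT-DNA, 104 and 126 CPM under hpRNA, and 106 and 126 CPM in mock. Every G3-YSD and HSV library held between 50.7% and 53.5% of the mock mean. Msmo1 fell by 0.95 ± 0.16 (SE, edgeR adjusted p = 0.0211) on the log2 scale under G3-YSD and by 0.94 ± 0.16 (SE, edgeR adjusted p = 0.0202) under HSV.

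Sc5d (chr9:42251595-42264256, minus strand) and Dhcr7 (chr7:143823145-143848410, plus strand), which desaturate and reduce late sterol intermediates, were lower as well. Sc5d gave 49.2 and 42.0 CPM in G3-YSD, 50.4 and 41.2 CPM in HSV, 75.2 and 71.9 CPM under cGAMP, 79.3 and 74.4 CPM under HT-DNA, 72.9 and 80.7 CPM under hpRNA, and 77.5 and 76.9 CPM in mock. It fell by 0.76 ± 0.15 (SE, edgeR adjusted p = 0.0291) under G3-YSD and by 0.75 ± 0.15 (SE, edgeR adjusted p = 0.0288) under HSV, on the log2 scale, with no overlap between the 4 low libraries and the other 8. Dhcr7 gave 12.2 and 18.1 CPM in G3-YSD, 13.5 and 18.2 CPM in HSV, 44.1 and 32.8 CPM under cGAMP, 41.2 and 33.9 CPM under HT-DNA, 39.1 and 41.5 CPM under hpRNA, and 33.2 and 42.6 CPM in mock. The highest of its 4 low values was well under the lowest of the others. Dhcr7 fell by 1.32 ± 0.26 (SE, edgeR adjusted p = 0.0307) under G3-YSD and by 1.25 ± 0.26 (SE, edgeR adjusted p = 0.0357) under HSV, and neither call held under upper quartile scaling.

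**Figure D2:**
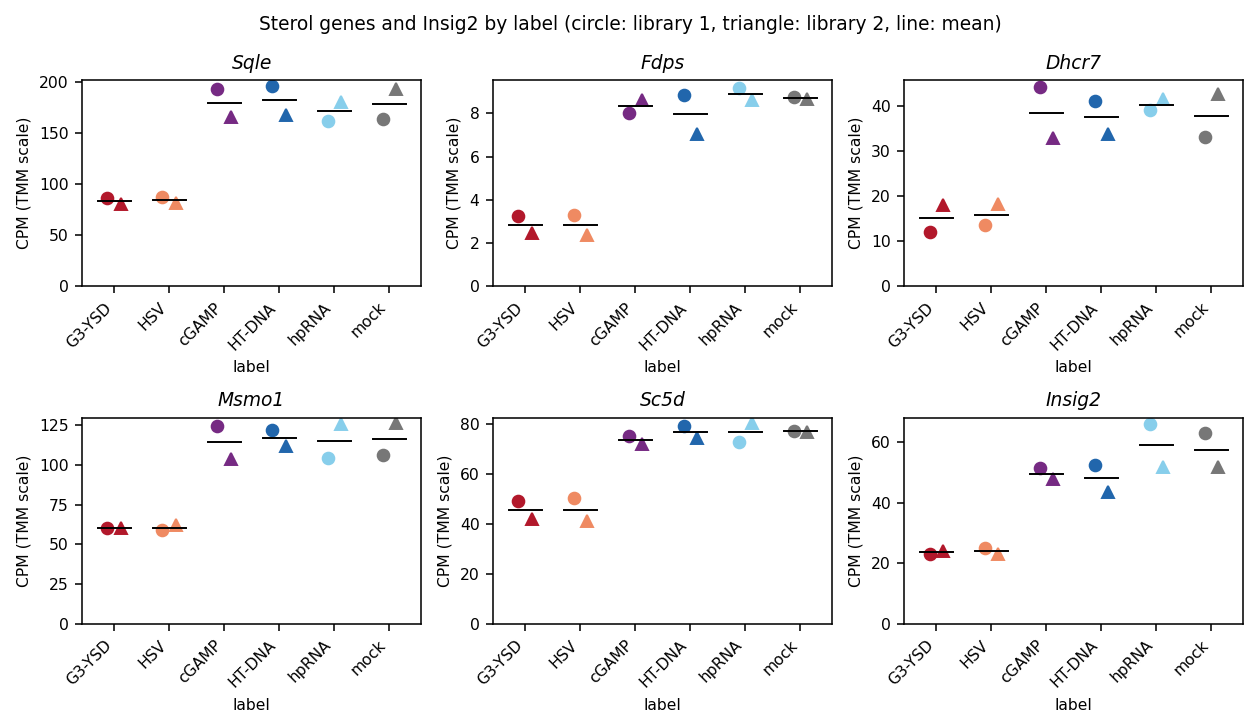
Levels in CPM on the TMM scale (y axis, from 0) of 5 called sterol enzymes and Insig2 by label, with circles for library 1, triangles for library 2 and lines for the mean of the 2. In each panel the 4 points of G3-YSD and HSV lie below the 8 points of cGAMP, HT-DNA, hpRNA and mock.

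The remaining 13 sterol enzymes were not called against mock. Mvd (chr8:122433601-122443422, minus strand), which makes isopentenyl diphosphate, gave 9.27 and 13.7 CPM in G3-YSD, 11.2 and 13.0 CPM in HSV, 24.1 and 21.4 CPM under cGAMP, 23.5 and 21.9 CPM under HT-DNA, 23.7 and 23.4 CPM under hpRNA, and 18.4 and 21.8 CPM in mock. Its 4 G3-YSD and HSV libraries were the lowest of the 12, with log2 fold changes against mock of -0.81 ± 0.21 (SE, edgeR adjusted p = 0.0662) for G3-YSD and -0.73 ± 0.21 (SE, edgeR adjusted p = 0.0858) for HSV. Hmgcs1, the HMG-CoA synthase, was lowest in the libraries numbered 2, at 87.5 and 45.5 CPM in G3-YSD and 88.8 and 45.2 CPM in HSV, against 118 and 99.1 CPM in mock, and 12.1% of its exons overlap Gm48342. Lss, the lanosterol synthase, ran the other way, with 64.8 and 101 CPM in G3-YSD and 62.5 and 107 CPM in HSV, against 111 and 143 CPM in mock. Idi1, an isopentenyl diphosphate isomerase, and Pmvk, the phosphomevalonate kinase, lay below all 8 other libraries in each of the 4, as did Acat2, a thiolase of the first step. For Idi1 16.7% and for Acat2 33.9% of exon stretches are shared with other genes, so both are uncertain. Fdft1, the squalene synthase, lay on both sides of mock, with 72.3 and 46.6 CPM in G3-YSD and 67.0 and 47.6 CPM in HSV, against 48.0 and 57.2 CPM in mock, and 18.3% of its exons overlap Ctsb.

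The other 6 uncalled enzymes mostly stood lower in the libraries numbered 1 than in those numbered 2. Cyp51 held 67.2% and 89.4% of the mock mean in G3-YSD, with 68.5% and 86.6% in HSV, and Nsdhl, a sterol dehydrogenase, held 63.7% and 92.1% in G3-YSD, with 66.3% and 97.4% in HSV. Mvk, the mevalonate kinase, held 53.2% and 109.8% in G3-YSD, with 57.8% and 115% in HSV, and Ebp, a sterol isomerase, 86.1% and 116% in G3-YSD, with 76.7% and 119.7% in HSV. Hsd17b7, a sterol ketoreductase, ran the other way, with 78.1% and 63.8% in G3-YSD, then 85.7% and 72.8% in HSV. Tm7sf2, which shares 8.83% of its exon stretches with Vps51, held 143% and 35.1% in G3-YSD, then 135% and 66.5% in HSV, on low counts.

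Taken library by library, G3-YSD 1 lay below all 8 libraries of cGAMP, HT-DNA, hpRNA and mock for 16 of 18 sterol enzymes, where 33.5% of all tested genes did so. The count was 14 of 18 in G3-YSD 2 (34.5% of all genes), 15 of 18 in HSV 1 (34% of all genes) and 15 of 18 in HSV 2 (34.8% of all genes). All 4 libraries lay below the 8 others for 11 of 18 sterol enzymes, 1 of 5 tested regulators and 2 of 9 genes of the fatty acid arm, which is 14 of 32 members, where 15.3% of all genes did so. All 4 lay above the 8 others for Fads2 alone, where 12.8% of all genes did so.

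**Figure D3:**
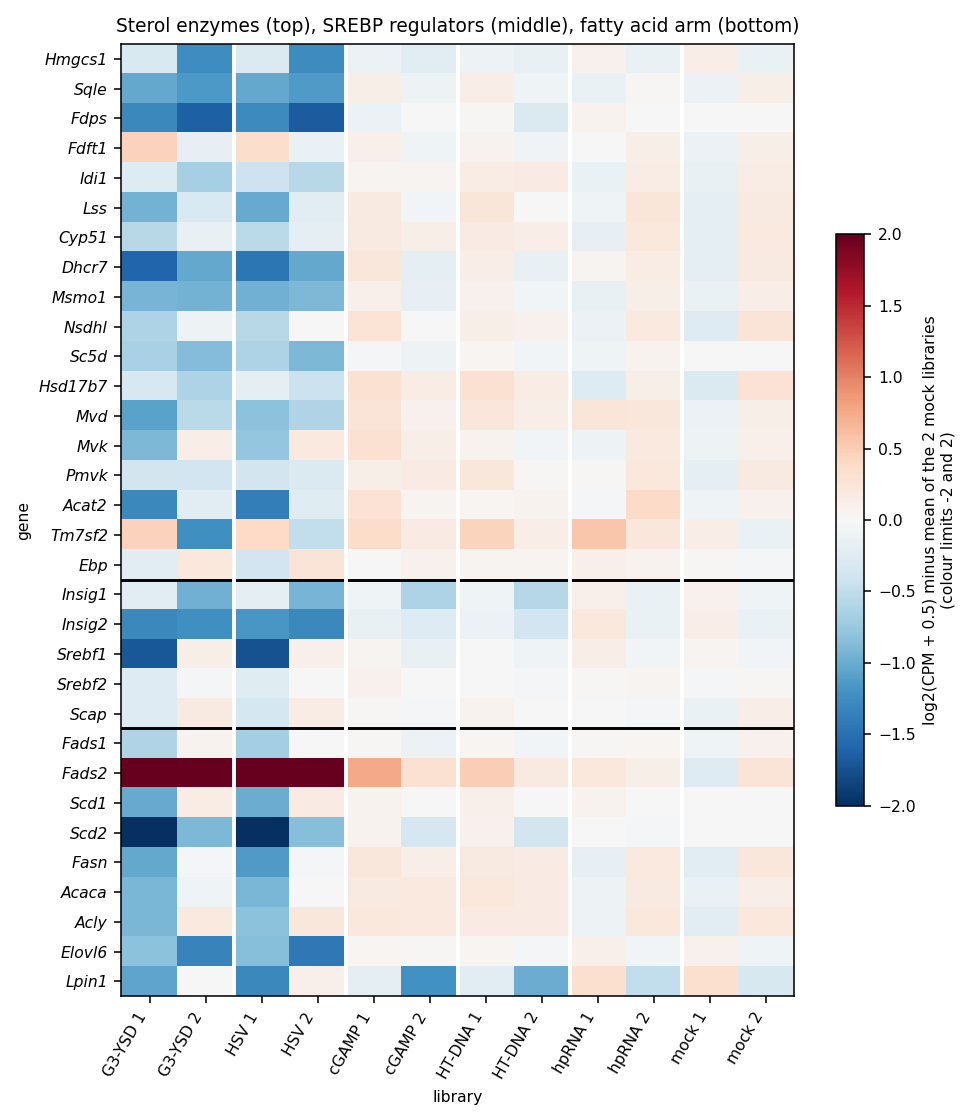
Each row is 1 of 32 members and each column 1 of 12 libraries; colour gives log2(CPM + 0.5) minus the mean of the 2 mock libraries, from blue (lower) to red (higher), with limits at -2 and 2. Most sterol rows are blue in all 4 columns of G3-YSD and HSV, while Srebf1 and most of the fatty acid rows are blue in the libraries numbered 1 only.

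Among the regulators, Insig2 (chr1:121304353-121332589, minus strand), which retains the SCAP and SREBP complex in the endoplasmic reticulum, fell under both labels. It gave 23.0 and 24.1 CPM in G3-YSD, 25.1 and 23.1 CPM in HSV, 51.5 and 47.8 CPM under cGAMP, 52.5 and 43.7 CPM under HT-DNA, 66.0 and 52.0 CPM under hpRNA, and 63.1 and 51.9 CPM in mock. The 4 values of G3-YSD and HSV were close to each other and below all 8 others. Insig2 fell by 1.29 ± 0.18 (SE, edgeR adjusted p = 0.0131) under G3-YSD and by 1.25 ± 0.18 (SE, edgeR adjusted p = 0.0153) under HSV, on the log2 scale.

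Its relative Insig1, itself an SREBP target, was not called. It gave 203 and 119.7 CPM in G3-YSD, 204 and 122 CPM in HSV, 219.8 and 153 CPM under cGAMP, 221 and 158 CPM under HT-DNA, 251 and 214 CPM under hpRNA, and 249 and 219 CPM in mock. The libraries numbered 1 of G3-YSD and HSV fell within the range of the other labels, and those numbered 2 lay below it. The log2 fold change was -0.54 ± 0.34 (SE, edgeR adjusted p = 0.350) under G3-YSD and -0.52 ± 0.34 (SE, edgeR adjusted p = 0.361) under HSV.

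Srebf1, the factor best known for driving fatty acid synthesis, split by number. It gave 90.2 and 320.5 CPM in G3-YSD, 87.7 and 314 CPM in HSV, 307 and 267 CPM under cGAMP, 293 and 277 CPM under HT-DNA, 324 and 282 CPM under hpRNA, and 304 and 284 CPM in mock. The libraries numbered 1 of G3-YSD and HSV held 30.6% and 29.8% of the mock mean, and those numbered 2 held 109% and 107%. With that spread the log2 fold changes of -0.52 ± 0.63 (SE, edgeR adjusted p = 0.631) under G3-YSD and -0.55 ± 0.63 (SE, edgeR adjusted p = 0.608) under HSV were not called. Srebf2, the factor best known for driving the sterol enzymes, varied least of the regulators. It gave 251 and 294 CPM in G3-YSD, 255 and 298 CPM in HSV, 321 and 301 CPM under cGAMP, 301 and 293 CPM under HT-DNA, 307 and 312 CPM under hpRNA, and 297 and 305 CPM in mock, with log2 fold changes of -0.14 ± 0.13 (SE) under G3-YSD and -0.12 ± 0.13 (SE) under HSV. Scap, the escort of SREBP, stood at 43.2 and 58.9 CPM in G3-YSD and 40.6 and 57.5 CPM in HSV, against 47.2 and 57.2 CPM in mock, and 13.2% of its exons overlap another gene. Stard4, a sterol transport protein, had 0 to 4 counts in every library.

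In the fatty acid arm, Elovl6 (chr3:129532355-129638495, plus strand), which elongates palmitate, fell. It gave 80.1 and 55.8 CPM in G3-YSD, 79.1 and 52.8 CPM in HSV, 146 and 145 CPM under cGAMP, 147 and 139 CPM under HT-DNA, 153 and 137 CPM under hpRNA, and 150.5 and 135 CPM in mock. The 4 G3-YSD and HSV libraries lay below the rest, with a log2 fold change of -1.07 ± 0.23 (SE, edgeR adjusted p = 0.0386) under G3-YSD and -1.11 ± 0.23 (SE, edgeR adjusted p = 0.0327) under HSV. Fads2 (chr19:10062765-10101746, minus strand), which desaturates polyunsaturated fatty acid precursors, rose. It gave 4.31 and 10.6 CPM in G3-YSD, 3.49 and 9.33 CPM in HSV, 0.974 and 0.584 CPM under cGAMP, 0.729 and 0.491 CPM under HT-DNA, 0.514 and 0.448 CPM under hpRNA, and 0.227 and 0.549 CPM in mock. All 4 were above the 8 others, where 12.8% of all tested genes were, with the libraries numbered 2 the highest. The log2 fold change of Fads2 was 4.24 ± 0.72 (SE, edgeR adjusted p = 0.0211) under G3-YSD and 4.02 ± 0.71 (SE, edgeR adjusted p = 0.0224) under HSV, on low counts in mock. More genes were detected in these 4 libraries than in the 8 others, and the part of this in the rise of Fads2 was not tested.

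The other 7 genes of the arm were not called. Scd2, the most abundant member, gave 167 and 640.2 CPM in G3-YSD and 162 and 664 CPM in HSV, against 1207 and 1183 CPM in mock. That is 13.9% of the mock mean in G3-YSD 1 and 53.6% in G3-YSD 2, with 13.6% and 55.5% in HSV, and the log2 fold change of -1.57 ± 0.71 (SE, edgeR adjusted p = 0.219) under G3-YSD carried a wide error. Fasn gave 456 and 897 CPM in G3-YSD and 423 and 899.8 CPM in HSV, against 795 and 1077 CPM in mock. Acly, which makes cytosolic acetyl-CoA, gave 191 and 413 CPM in G3-YSD and 203 and 422 CPM in HSV, against 311 and 415 CPM in mock. For Fasn and Acly, then, only the libraries numbered 1 lay below mock 1 and mock 2. Scd1, another stearoyl-CoA desaturase, gave 178 and 399 CPM in G3-YSD and 181 and 403 CPM in HSV, against 357 and 361 CPM in mock. Acaca, the acetyl-CoA carboxylase, held 52.9% and 93.9% of the mock mean in G3-YSD with 52.9% and 98.6% in HSV, and shares 26.8% of its exon stretches with other genes. Fads1, another desaturase, held 65.6% and 105% in G3-YSD with 62.4% in HSV 1, where HSV 2 was at the mock mean. Lpin1 gave 16.5 and 35.1 CPM in G3-YSD and 14.0 and 37.4 CPM in HSV, against 43.8 and 27.9 CPM in mock, and its 2 libraries differed by over 1.5 times within each of the 6 labels.

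**Figure D4:**
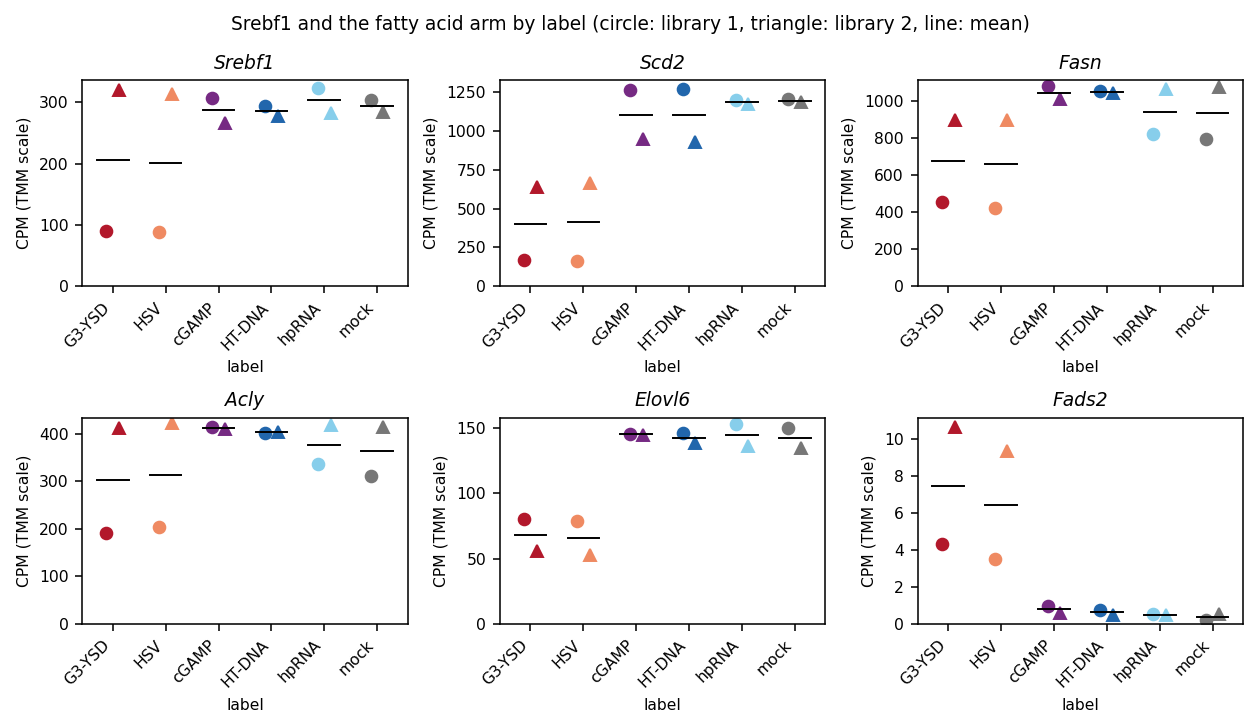
Levels in CPM on the TMM scale (y axis, from 0) of Srebf1 and 5 genes of the fatty acid arm by label, with circles for library 1, triangles for library 2 and lines for the mean of the 2. For Srebf1, Fasn and Acly the G3-YSD and HSV circles lie far below their triangles, whereas all 4 points of Elovl6 are low and all 4 of Fads2 are high.

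Set side by side, the summed sterol enzymes and the summed fatty acid arm kept different proportions in the libraries numbered 1 and 2. The sterol enzymes summed to 1083 and 1252 CPM in G3-YSD, with 1082 and 1259 CPM in HSV, against 1529 and 1832 CPM in mock. As a share of the mock mean that was 64.4% and 74.5% in G3-YSD with 64.4% and 74.9% in HSV. The fatty acid arm summed to 1315 and 2816 CPM in G3-YSD, with 1279.5 and 2850 CPM in HSV, against 3203 and 3588 CPM in mock, or 38.7% and 82.9% of the mock mean in G3-YSD with 37.7% and 83.9% in HSV. The ratio of the sterol sum to the fatty acid sum was 0.824 and 0.445 in G3-YSD with 0.846 and 0.442 in HSV, against 0.477 and 0.511 in mock. Scd2 weighs heavily in these sums. Without it, a choice made after the data were seen, the fatty acid arm held 52.2% and 98.9% of the mock mean in G3-YSD, then 50.8% and 99.3% in HSV. The ratio without Scd2 was 0.943 and 0.575 in G3-YSD, then 0.968 and 0.576 in HSV, against 0.766 and 0.762 in mock. With or without Scd2, the fatty acid sum was lowest in G3-YSD 1 and HSV 1, and the ratio lay above mock in those libraries and below it in G3-YSD 2 and HSV 2. Without Scd2 the ratio lay closer to mock in the libraries numbered 1 and farther from it in those numbered 2.

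G3-YSD 1 and HSV 1 also carried the highest interferon-stimulated RNA. The 6 interferon-stimulated genes Ifit1, Irf7, Isg15, Oasl2, Rsad2 and Usp18 summed to 8432 and 169 CPM in G3-YSD, with 8386 and 148 CPM in HSV, against 691 and 2840 CPM under cGAMP, 581 and 2698 CPM under HT-DNA, 16.2 and 1774 CPM under hpRNA, and 17.2 and 1967 CPM in mock. The sum was thus high in mock 2, an untreated library, and low in G3-YSD 2 and HSV 2. Whether the labels of these libraries hold cannot be told from the files. The labels were kept, and mock 2 is 1 of the 2 libraries behind every fold change over mock and every share of the mock mean given here. Sqle, Msmo1 and Insig2 were about as low in G3-YSD 2 and HSV 2 as in G3-YSD 1 and HSV 1. Other sterol enzymes split by number, in either direction. In G3-YSD 1 and G3-YSD 2, Acat2 held 40.6% and 85.0% of the mock mean and Hmgcs1 80.5% and 41.9%. The part that the interferon-stimulated state has in the levels of the sterol genes, Srebf1 and the fatty acid arm was not tested. Mitochondrial genes took 2.03% and 3.64% of counts in G3-YSD with 2.08% and 3.53% in HSV, against 2.52% and 2.07% in mock, and their part was not tested.

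**Figure D5:**
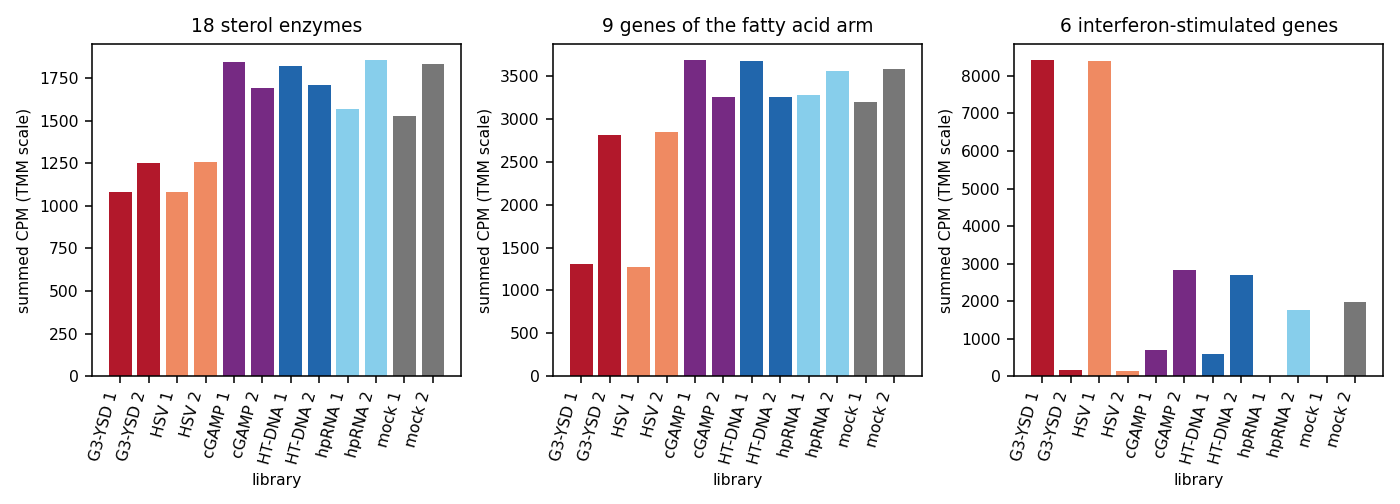
Summed CPM on the TMM scale (y axes, from 0) in each of the 12 libraries for the 18 sterol enzymes, the 9 genes of the fatty acid arm and 6 interferon-stimulated genes. The sterol bars of all 4 G3-YSD and HSV libraries are low, the fatty acid bars are lowest in G3-YSD 1 and HSV 1, and the interferon bars are tallest in those same 2 libraries.

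Because the libraries differed so much by number, the fit was repeated without the G3-YSD and HSV libraries numbered 1, and again without those numbered 2, an alternative chosen after the data were seen in which each lone library is assumed to vary like the other labels. With the libraries numbered 1 left out, 9 of 18 sterol enzymes were called lower in G3-YSD against mock and 8 of 18 in HSV against mock, where 22.3% and 22.4% of all genes were called lower. Insig1 and Insig2 of the 5 regulators were then lower under both labels, as were Elovl6 and Scd2 of the 9 genes of the fatty acid arm, and only Fads2 was higher, where 21.3% of all genes were called higher in each. With the libraries numbered 2 left out, 10 of 18 sterol enzymes were called lower under each label, where 18.1% of all genes were called lower in G3-YSD and 19% in HSV. Of the fatty acid arm 7 of 9 were then called lower under each label, namely Acaca, Acly, Elovl6, Fads1, Fasn, Scd1 and Scd2, and Srebf1, Srebf2 and Insig2 fell among the regulators. Fads2 was higher under both and Fdft1 under G3-YSD, where 20.3% of all genes were called higher in G3-YSD and 20.2% in HSV. Sqle, Fdps, Dhcr7, Msmo1, Sc5d, Mvd, Insig2, Elovl6, Scd2 and Fads2 were called in both of these fits under both labels. The share of all genes called in both fits was not counted, so this overlap has no background to be read against.

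Against cGAMP, whose source name is worded as theirs, the same 8 members were called under G3-YSD and HSV and Mvd joined them. In G3-YSD against cGAMP 8 members were called lower and 1 higher, where 3.15% of all genes were called lower and 1.85% higher. In HSV against cGAMP it was also 8 lower and 1 higher, where 3.31% of all genes were called lower and 1.78% higher. Mvd fell by 0.99 ± 0.21 (SE, edgeR adjusted p = 0.0378) under G3-YSD and by 0.91 ± 0.21 (SE, edgeR adjusted p = 0.0479) under HSV, on the log2 scale. Insig2 fell by 1.07 ± 0.18 (SE, edgeR adjusted p = 0.0186) under G3-YSD and by 1.04 ± 0.18 (SE, edgeR adjusted p = 0.0192) under HSV. Calls were lost for all 9 members with only the 4 libraries compared and without either cGAMP library. Without G3-YSD 2 or HSV 2 nearly all or all were lost, and without G3-YSD 1 or HSV 1 some were. Dhcr7, Mvd and Sc5d were not called under upper quartile scaling. Without the filter on low counts 1 call was lost for G3-YSD and 2 for HSV, and with the size factors of DESeq2 in edgeR 1 for HSV.

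No member separated G3-YSD from HSV by the test. In G3-YSD against HSV none of the 32 was called and none had an unadjusted p under 0.05, where 0% of all genes were called, 33 genes had an unadjusted p under 0.05 and DESeq2 called 1. The log2 fold changes of the members ran between -0.18 ± 0.58 (SE) for Tm7sf2, a sterol reductase, and 0.22 ± 0.60 (SE) for Fads2. With standard errors of 0.13 to 0.69 across the members, smaller differences between the 2 labels could have gone unseen. These errors include the split between libraries 1 and 2, at 82.6 times counting noise within G3-YSD and 76.3 times within HSV. Between same-numbered libraries of the 2 labels it was 2.03 and 1.41 times. The unpaired test had little power for differences of that size, so no likeness of the labels follows from it.

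Ch25h was silent in nearly every library. It had 4 counts in G3-YSD 1, or 0.234 CPM by library total with an exact 95% interval of 0.0637 to 0.598 CPM, and 0 counts in the other 11 libraries. G3-YSD 1 was also the library with the most genes detected. By the rule of 3 counts, a one-sided limit where the interval is two-sided, a count of 0 allows up to 0.159 to 0.237 CPM depending on the library, and these limits cover counting error only. Ifit1, an interferon-stimulated gene, stood at 1805 and 65.7 CPM in G3-YSD and at 1696 and 54.9 CPM in HSV, against 2.10 and 486 CPM in mock. Ch25h RNA at 6 h was therefore at or below these limits wherever it had no counts, HSV 1 with its high Ifit1 included.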

How the data were processed

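Per-gene raw counts were deposited, with 1 file for each library. The submitters' processing notes name HISAT2, HTSeq and mm10, and pairs of 150 bases were read per the labels' protocols. Tool versions, the gene annotation and whether counting used strand are not given in the sources used, so reads of overlapping and near-identical genes may be shared. Of 54532 genes, 54495 matched GENCODE M21, which gave symbols, positions and exon lengths. Total counts ranged from 12650790 to 18912400.

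The analysis used R 4.3.3, edgeR 4.0.16 and limma 3.58.1. edgeR's default filter on low counts left 16840 genes, and TMM set the scale. All 12 libraries entered 1 quasi-likelihood fit with a term for each label (6 residual degrees of freedom, biological coefficient of variation 0.397). A gene was called where its Benjamini-Hochberg adjusted p was under 0.05, whatever its fold, in 8 comparisons. CPM and FPKM were computed here from the deposited counts on the TMM scale. The fits were tested on simulated counts drawn independently for each library. Those counts lacked the likeness of same-numbered libraries seen here, so that test does not cover it.

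The 34 members and all lists were chosen with earlier results of these data known. The rule for named genes took all members, with values in every library for called members and for Ch25h, Insig1, Insig2, Srebf1 and Srebf2, and up to 3 called genes of each other list. Exon stretches of 75 bases were compared across all genes. Alternatives were DESeq2 1.42.0, other scalings, no filter, other sets of libraries and a replicate block. No promoter window was used for Scd2, Scd1, Fdps, Fads1, Stard4, Fdft1 and Sqle.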

Additional observations from a re-analysis of the deposited data

How the results depend on the processing

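No called member's fold change reversed under the settings run. Across these members and their alternatives 193 calls were lost and 249 held, with the direction kept in all. The main counts of genes called were 869 in G3-YSD against mock (302 higher, 567 lower), 876 in HSV against mock (291 higher, 585 lower), 842 in G3-YSD against cGAMP (312 higher, 530 lower) and 856 in HSV against cGAMP (299 higher, 557 lower), with 8, 8, 9 and 9 members. In that order DESeq2 called 2106 (987 higher, 1119 lower), 2138 (968 higher, 1170 lower), 2020 (920 higher, 1100 lower) and 1899 (830 higher, 1069 lower). Without the filter on low counts the numbers were 1894 (1160 higher, 734 lower), 1892 (1150 higher, 742 lower), 1650 (969 higher, 681 lower) and 1633 (954 higher, 679 lower). Upper quartile scaling gave 678 (364 higher, 314 lower), 651 (347 higher, 304 lower), 670 (375 higher, 295 lower) and 657 (360 higher, 297 lower) and moved the all-gene median log2 fold change in G3-YSD against mock to 0.24, with 0.11 under TMM.

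With only the 4 libraries compared, genes and members called were 0 in each of these 4 comparisons. Leaving out 1 library gave 0 to 652 genes and 0 to 6 members in G3-YSD against mock, 0 to 682 and 0 to 6 in HSV against mock, 0 to 567 and 0 to 4 in G3-YSD against cGAMP, and 0 to 671 and 0 to 6 in HSV against cGAMP. In the other 4 comparisons it gave 0. The fits chosen after seeing the data, without the G3-YSD and HSV libraries numbered 1, called 7213, 7233, 7134 and 7150 genes and 14, 13, 15 and 13 members. Without those numbered 2 they called 6533, 6672, 6391 and 6279 genes and 22, 21, 24 and 22 members. The cause of these shifts was not tested.

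Whether equal numbers pair the libraries was checked by the correlation of deviations from the label means. It was 0.94 between G3-YSD and HSV, 0.37 to 0.65 among the other 4 labels and -0.36 to -0.31 between those sets. Equal numbers thus went together within each set but not across them, so the fit of all 12 libraries took no pairs. Its comparisons within a set therefore left that link out. A replicate block over all 12 libraries called 1211, 1214, 1142 and 1079 genes and kept every call of a member. A replicate block in the 4 libraries compared called 0 genes and 0 members in these 4 comparisons, 6 genes in HT-DNA against mock, 182 in hpRNA against mock with 1 member (Acat2, higher), 6 in cGAMP against mock and 13 in G3-YSD against HSV. Without the G3-YSD and HSV libraries the block called 14 genes in HT-DNA against mock and 23 in cGAMP against mock. DESeq2 called 1 gene in HT-DNA against mock, 1 in hpRNA against mock and 1 in G3-YSD against HSV, where 1 was also called without the filter. The summed levels of both arms moved by less than their spread under the other measures, also without Scd2, a setting chosen after seeing the data. That spread includes the split between libraries 1 and 2, so it can hide large shifts. By median log2 CPM both arms fell less than by sum. The fatty acid arm stood at 7.24 and 7.91 in G3-YSD against 7.76 and 7.92 in mock. The sterol enzymes stood at 5.38 and 5.47 in G3-YSD against 5.62 and 5.81 in mock. Depth limits Ch25h, Stard4 and Fads2, which had few counts in mock.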

Other observations

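Some genes of the same pathways outside the 34 were called lower against mock by edgeR's quasi-likelihood test at an adjusted p under 0.05, where 3.37% of all genes were called lower under G3-YSD and 3.47% under HSV. Of 13 tested genes in a list of other sterol pathway and uptake genes, 8 lay below 0 and 5 above under each label, and 2 were called. Erg28, whose yeast relative tethers enzymes of sterol demethylation, and Mbtps2, a protease that releases SREBP, fell under both labels against mock. Erg28 fell by 0.76 on the log2 scale under G3-YSD and by 0.62 under HSV, and Mbtps2 by 0.70 and 0.73. In CPM, Mbtps2 stood at 28.9 and 32.5 in G3-YSD, with 31.1 and 29.1 in HSV, against 52.8 and 47.2 in mock. Of 18 tested genes in a list of other fatty acid and glycerolipid genes, Aacs, an acetoacetyl-CoA synthetase, and Lpin2, a phosphatidate phosphatase, fell, by 0.62 and 0.89 under G3-YSD and by 0.71 and 0.97 under HSV. Lpin2 was not called in G3-YSD against cGAMP (edgeR adjusted p = 0.0529). Nceh1, a hydrolase of cholesterol esters, was the only called gene of 9 on an LXR target and efflux list, where it fell by 0.93 under G3-YSD and by 0.84 under HSV. Rnf145, a ubiquitin ligase of the SREBP system, was the only one of 14 on a list of INSIG and SREBP turnover genes, where it fell by 1.13 under both; against cGAMP it was not called, with an edgeR adjusted p of 0.0580 under G3-YSD and 0.0576 under HSV. No gene of these lists was called higher, and none of 5 tested oxysterol genes was called. Npc1, which exports cholesterol from lysosomes, fell against cGAMP by 0.91 under G3-YSD and by 1.01 under HSV.

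Abca1, a cholesterol efflux pump singled out after its values were seen, gave 11.5 and 117 CPM in G3-YSD and 11.1 and 109.9 CPM in HSV, against 60.8 and 36.3 CPM in mock. It was not called.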
